A study of Mus musculus with 16 samples.

Results

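The genes described here build and cut the extracellular matrix: the matrix metalloproteinases (Mmp genes), the secreted ADAMTS metalloproteinases (Adamts genes), their inhibitors (Timp1 to Timp4) and the lysyl oxidases (Lox and Loxl1 to Loxl4). They were taken by gene symbol from the deposited tables, which hold the same 22322 genes for liver and for white adipose tissue. The symbols gave 50 genes, of which 22 are Mmp, 19 are Adamts, 4 are Timp and 5 are lysyl oxidase genes; Mmp12 was not part of the selection. Messenger RNA was sequenced from mice with diet-induced obesity (labelled HFD) that received vehicle or halofuginone at 100 µg/kg by intraperitoneal injection every 2 days, with tissues collected after 8 weeks. Halofuginone is a plant-alkaloid derivative that inhibits prolyl-tRNA synthetase and is known as an antifibrotic agent. The liver was represented by 5 vehicle (HFD) and 5 halofuginone (H100) libraries, and white adipose tissue by 3 and 3. The high-fat diet was common to all 4 groups, and no lean or untreated group was analysed here. The labels give neither strain, sex nor age, nor the vehicle, the fat depot or which liver and fat came from the same mouse. They do not say that each library is a separate animal, so the p-values measure the spread between these libraries.

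Matrix metalloproteinases are zinc enzymes, made as inactive proforms, that cleave collagens, gelatin, proteoglycans and many surface proteins. The ADAMTS enzymes include the procollagen N-proteinases, which trim newly secreted collagen, and the proteoglycanases, which cut aggrecan and versican. TIMPs bind the active site of the metalloproteinases, and lysyl oxidases cross-link collagen and elastin. In the liver this system is run largely by stellate cells, portal fibroblasts and macrophages and is known for setting the balance between scar deposition and scar removal; in fat it remodels the matrix around growing adipocytes.

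Total counts were 20309956 to 31980683 per liver library and 17070614 to 21387799 per fat library. Levels are given in CPM, counts scaled to a common library total after TMM (trimmed mean of M values) scaling within a tissue, and a call means an adjusted p (Benjamini-Hochberg over all genes tested in the tissue) under 0.05 in edgeR's quasi-likelihood test. A count of 3 corresponds to 0.0983 to 0.150 CPM in liver and 0.139 to 0.18 CPM in fat, a limit that covers counting error only. The labelled tissues carried their markers: Alb was at 26720 to 98770 CPM in liver and at most 4.58 CPM in fat, and Adipoq was at 989.9 to 2541 CPM in fat. Halofuginone liver 1 stood apart: without it 5312 of 12422 genes were called in liver, against 2850 of 12311 with it. Vehicle fat 3 also stood apart, with a summed macrophage marker level of 11675 CPM against 5784 and 6860 in the other vehicle fat libraries, a summed mast cell marker level of 960.5 CPM against 109.9 and 130.3, and the epididymal gene Crisp1 at 63.6 CPM against 0.06 and 0.48. Most results that rest on either library are given with and without it.

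After the filter on low counts, 29 of the 50 genes were tested in liver, 35 in fat and 28 in both. Of those left out, 7 had no read in any liver library (Adamts18, Adamts19, Mmp10, Mmp16, Mmp1a, Mmp1b and Mmp20), and Mmp21 had none in any fat library. Per length, vehicle fat expressed the system more broadly than vehicle liver: 31 of the 50 genes had a mean of at least 1 FPKM (a level scaled by gene length and library total) in fat and 7 in liver. For 36 of the 50, every vehicle fat library was above every vehicle liver library in FPKM, and for Adamts13 alone every vehicle fat library was below. The FPKM tables of the tissues were normalized separately, so these levels are set side by side without a test. The highest mean level in vehicle liver was that of Mmp19, at 18.8 ± 3.06 FPKM (SD, n = 5), followed by Mmp14 at 13.8 ± 3.07, and the ranges of these neighbours overlapped. Timp3, at 8.79 ± 0.491 FPKM, did not reach the lowest value of Mmp14, 10.5 FPKM. Vehicle fat was led by Timp2 at 264 ± 17.8 FPKM (SD, n = 3), which did not overlap Mmp19 at 109 ± 62.7 or Timp3 at 104 ± 40.0.

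In liver, 10 of the 29 genes tested changed with halofuginone: 9 fell and Mmp28 rose. That is 34.5% of them, beside 23.2% of all genes tested; for falls it is 31%, beside 10.5% of all genes, while 12.7% of all genes rose. Their median log2 fold change was -0.44, beside 0.02 over all genes. By family the calls were 4 of 10 Mmp genes (Mmp13, Mmp19 and Mmp23 lower, Mmp28 higher), 4 of 12 Adamts genes (Adamts1, Adamts2, Adamts4 and Adamts9, each lower), Timp3 of 3 Timp genes and Loxl2 of 4 lysyl oxidase genes. The count was 5 of 31 when halofuginone liver 3 was left out, beside 10.3% of all genes. It was 14 of 31 without halofuginone liver 1, beside 42.8% of all genes, a share near that of the members. In 6 of the 29 genes every halofuginone liver lay below every vehicle liver (20.7%, beside 6.56% of all genes), and in none did every halofuginone liver lie above (5.13% of all genes).

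Loxl2, a lysyl oxidase that cross-links collagen, was the member with the smallest p in liver. Its level was 4.39, 6.66, 7.78, 6.57 and 5.83 CPM in vehicle livers 1 to 5 and 3.43, 2.35, 2.36, 1.97 and 2.49 CPM in halofuginone livers 1 to 5. The groups did not overlap, and halofuginone liver 1 was the highest of its group. Loxl2 fell 2.48-fold (log2 fold change -1.31, SE 0.19, adjusted p = 0.0032), a call kept under all 20 alternative analyses run. The other lysyl oxidases were not called. Loxl1 was at 0.606 to 2.02 CPM with vehicle and 0.501 to 0.993 CPM with halofuginone (log2 fold change -0.68, SE 0.35, adjusted p = 0.165), and Loxl3 was near 1 CPM in both groups (log2 fold change -0.14, adjusted p = 0.661; the sign turned with library-size scaling and on the FPKM scale). Loxl4 was at 0.821 to 1.16 CPM with vehicle and at 1.19, 6.18, 0.751, 0.964 and 1.15 CPM with halofuginone, so that its log2 fold change of 1.1 (SE 0.56, adjusted p = 0.163) came from halofuginone liver 2; without that library it was 0.07. Halofuginone liver 2 was also the library with the highest Lcn2, an acute-phase and neutrophil gene, at 2985 CPM. Among livers the neutrophil genes S100a8 and S100a9 were highest there too, at 3.09 and 7.15 CPM. They were at most 2.10 and 2.73 CPM in any other liver. The part of these genes in the Loxl4 value was not tested. Lox itself was too low to be tested in liver, at 0.317 to 0.885 CPM with vehicle and 0.0744 to 0.695 CPM with halofuginone.

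Mmp13, the main interstitial collagenase of mice, showed the largest fall among the members called in liver. Its level was 0.633, 1.60, 3.35, 1.79 and 1.44 CPM in vehicle livers 1 to 5 and 0.447, 0.0373, 0.0358, 0.231 and 0.112 CPM in halofuginone livers 1 to 5. These are low counts, 16 to 72 reads with vehicle and 1 to 9 with halofuginone, but the groups did not overlap. Mmp13 fell 10.6-fold (log2 fold change -3.41, SE 0.59, adjusted p = 0.0061), and the call held in all 19 alternatives that gave a value. The other collagenase, Mmp8, which is stored in neutrophils, was at 0.336 to 0.839 CPM with vehicle and at 0.193 to 1.94 CPM with halofuginone (log2 fold change 0.22, SE 0.58, adjusted p = 0.811). Its highest value, 1.94 CPM, was in halofuginone liver 2, the library with the high Lcn2; without it the log2 fold change was -0.78.

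**Figure D1:**
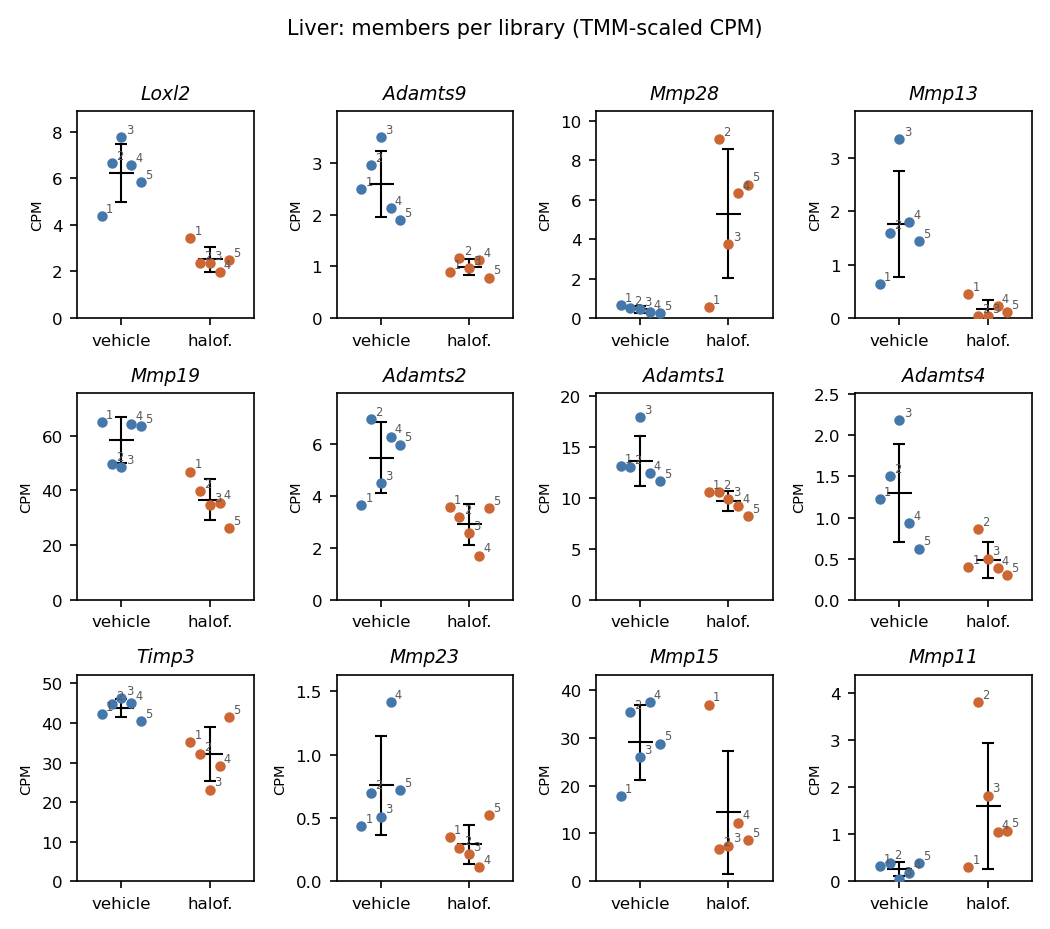
Level in CPM (vertical axis, from 0) of 12 matrix genes in each liver library; blue points are vehicle and orange points halofuginone (halof.), numbers are replicates, and the horizontal line and bar are the mean ± SD (n = 5). Loxl2, Adamts9, Mmp13, Mmp19, Adamts2 and Adamts1 show no overlap between groups, while halofuginone liver 1 lies with the vehicle livers for Mmp28 (0.546 CPM), Mmp15 (36.9 CPM) and Mmp11 (0.298 CPM).

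Mmp13 lies in a run of metalloproteinase genes on chromosome 9, and the stretch before its start carries a sequence of the kind bound by AP-1 (Fos and Jun dimers), a factor known to drive collagenase and stromelysin genes. RefSeq promoter windows (GRCm38.p6, 300 bases each, from 250 before to 50 after a gene start) were found for 32 of the 50 genes, in 34 windows. The letters TGANTCA, which read the same on both strands, were in 7.81% of all 32851 windows and in those of 7 of the 32 genes: Mmp1a, Mmp1b, Mmp3, Mmp7, Mmp10, Mmp13 and Mmp20, all on chromosome 9. TATAAA, searched on both strands, was in 13.6% of all windows and in those of 10 of the 32 genes, these 7 among them. The 100 bases before the start are shown 5′ to 3′ for 4 of the 7, the stromelysins Mmp3 and Mmp10, the matrilysin Mmp7 and Mmp13, because Mmp13 fell in liver and their levels in fat are compared further on; Mmp28, the member that rose, is shown beside them. Capitals mark TGANTCA and TATAAA.
Mmp13, chr9:7272414-7272513, plus strand: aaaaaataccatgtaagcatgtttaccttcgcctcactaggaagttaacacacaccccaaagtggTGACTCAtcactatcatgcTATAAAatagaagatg
Mmp3, chr9:7445722-7445821, plus strand: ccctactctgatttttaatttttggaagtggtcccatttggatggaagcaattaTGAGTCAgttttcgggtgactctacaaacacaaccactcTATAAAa
Mmp10, chr9:7502242-7502341, plus strand: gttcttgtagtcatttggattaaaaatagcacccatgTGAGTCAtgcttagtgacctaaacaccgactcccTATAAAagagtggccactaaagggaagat
Mmp7, chr9:7691990-7692089, plus strand: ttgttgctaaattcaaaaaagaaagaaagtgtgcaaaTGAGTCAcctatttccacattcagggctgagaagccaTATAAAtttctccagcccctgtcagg
Mmp28, chr11:83463041-83463140, minus strand: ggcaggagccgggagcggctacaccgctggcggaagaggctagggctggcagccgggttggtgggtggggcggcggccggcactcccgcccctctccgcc
The first base of TGANTCA lay 35 bases before the start in Mmp13, 46 in Mmp3 and 63 in both Mmp7 and Mmp10. The window of Mmp28 held neither motif. TGATGNAA (the ATF4 and C/EBP composite), searched on both strands, was in 3.97% of all windows and in that of Mmp10. A match is a description of these letters only.

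Of the 5 proteoglycanase genes of the Adamts family tested in liver, 3 fell. Adamts9, which cuts versican and aggrecan, was at 2.49, 2.95, 3.49, 2.13 and 1.9 CPM in vehicle livers 1 to 5 and at 0.894, 1.15, 0.965, 1.12 and 0.781 CPM in halofuginone livers 1 to 5. The groups were well separated, and halofuginone liver 1 lay with the rest of its group. Adamts9 fell 2.61-fold (log2 fold change -1.39, SE 0.21, adjusted p = 0.0038), in all 20 alternatives. Adamts4, another aggrecanase, was at 1.23, 1.5, 2.19, 0.933 and 0.622 CPM with vehicle and at 0.397, 0.857, 0.501, 0.386 and 0.298 CPM with halofuginone. Its groups overlapped between vehicle liver 5 and halofuginone liver 2, and it fell 2.59-fold (log2 fold change -1.37, SE 0.38, adjusted p = 0.0271), a call kept in 10 of 19 alternatives. Adamts1, the founding member of the family, was at 13.1, 13.0, 18, 12.5 and 11.6 CPM with vehicle and at 10.6, 10.6, 9.87, 9.22 and 8.26 CPM with halofuginone. The groups did not overlap although the change was small, 1.40-fold down (log2 fold change -0.49, SE 0.13, adjusted p = 0.0234), and the call was kept in 13 of 20 alternatives. The aggrecanases Adamts5 (log2 fold change -0.18, adjusted p = 0.701) and Adamts15 (-0.39, adjusted p = 0.209) did not pass the test.

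Adamts2, the main procollagen N-proteinase, which removes the amino-terminal propeptide of fibrillar collagens, was at 3.64, 6.96, 4.47, 6.27 and 5.96 CPM in vehicle livers and at 3.57, 3.17, 2.57, 1.70 and 3.54 CPM in halofuginone livers. Its groups were separate by a narrow margin between vehicle liver 1 and halofuginone liver 1, and it fell 1.88-fold (log2 fold change -0.91, SE 0.23, adjusted p = 0.021), a call kept in 16 of 20 alternatives. Its relative Adamts14 was at 0.466 to 1.20 CPM with vehicle and 0.424 to 0.707 CPM with halofuginone (log2 fold change -0.61, adjusted p = 0.163), and Adamts3 was untested, at or below 0.131 CPM in every liver. Adamts12, which cuts the cartilage matrix protein COMP, missed the threshold, at 0.435 to 0.932 CPM with vehicle and 0.0771 to 0.447 CPM with halofuginone (log2 fold change -1.07, SE 0.39, adjusted p = 0.0658); without halofuginone liver 1 its adjusted p was 0.0326. Adamts13, which cleaves von Willebrand factor and is made by hepatic stellate cells, was at 2.38 to 3.66 CPM with vehicle and 2.36 to 3.13 CPM with halofuginone (log2 fold change -0.19, SE 0.15, adjusted p = 0.388).

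Mmp19, a soluble metalloproteinase that cuts basement membrane proteins, was the highest member per length in vehicle liver. It was at 65.0, 49.6, 48.5, 64.4 and 63.6 CPM in vehicle livers and at 46.8, 39.8, 34.5, 35.5 and 26.1 CPM in halofuginone livers. The groups did not overlap, with halofuginone liver 1 closest to the vehicle livers, and Mmp19 fell 1.59-fold (log2 fold change -0.67, SE 0.15, adjusted p = 0.0142; called in 18 of 20 alternatives). Tmem198b on the opposite strand shares 22.3% of its exon bases and was low, at 2.5 CPM with vehicle and 3.1 CPM with halofuginone on average. Mmp23, a membrane-anchored member without the usual haemopexin domain, was at 0.435, 0.701, 0.513, 1.42 and 0.721 CPM with vehicle and at 0.348, 0.261, 0.215, 0.116 and 0.521 CPM with halofuginone. The groups overlapped, and its fall (log2 fold change -1.38, SE 0.43, adjusted p = 0.0387) was called in 8 of 19 alternatives.

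Mmp28, or epilysin, was the only member tested in liver that rose. It was at 0.673, 0.501, 0.466, 0.299 and 0.262 CPM in vehicle livers and at 0.546, 9.09, 3.75, 6.32 and 6.77 CPM in halofuginone livers 1 to 5. Halofuginone liver 1 lay among the vehicle livers, and the other 4 were all above 3 CPM. Mmp28 rose 12.2-fold (log2 fold change 3.61, SE 0.60, adjusted p = 0.0051), and without halofuginone liver 1 the log2 fold change was 3.87 (adjusted p = 1.23e-05). The gene 1700020L24Rik runs on the opposite strand and shares 12% of the exon bases of Mmp28 (GENCODE M21). It was at 0.058 CPM on average in vehicle livers and 0.790 CPM in halofuginone livers. The strand setting of the counting is not given in the sources used here, so reads from the shared bases cannot be assigned to either gene.

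Mmp15, a transmembrane metalloproteinase, showed the same split within the halofuginone group in the other direction. Its vehicle livers were at 17.8, 35.3, 26.0, 37.4 and 28.8 CPM, and halofuginone livers 1 to 5 were at 36.9, 6.78, 7.47, 12.3 and 8.56 CPM. With all libraries it was not called (log2 fold change -1.02, SE 0.44, adjusted p = 0.109); without halofuginone liver 1 it was (log2 fold change -1.75, adjusted p = 0.000238). Mmp11, or stromelysin-3, was under the filter in liver, at 0.317, 0.401, 0.0466, 0.187 and 0.393 CPM with vehicle and 0.298, 3.80, 1.82, 1.04 and 1.08 CPM with halofuginone. Again halofuginone liver 1 lay among the vehicle livers; without the filter its log2 fold change was 2.56 (SE 0.61, adjusted p = 0.0183). Mmp11 shares 5.58% of its exon bases with Chchd10 on the opposite strand, a mitochondrial gene that was at 295.5 to 344.1 CPM in vehicle livers, 347.4 CPM in halofuginone liver 1 and 579.0 to 818.5 CPM in the other halofuginone livers (log2 fold change 1.04, adjusted p = 0.0092). Whether its reads enter the Mmp11 counts was not tested.

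The remaining liver proteases showed no call. Mmp14, the membrane activator of pro-Mmp2, was at 49.7, 29.7, 31.8, 37.2 and 37.7 CPM with vehicle and at 35.6, 62.8, 45.7, 36.1 and 44.6 CPM with halofuginone (log2 fold change 0.27, SE 0.18, adjusted p = 0.277). The gelatinases overlapped between groups: Mmp2 was at 1.44 to 4.33 CPM with vehicle and 1.04 to 2.61 CPM with halofuginone (log2 fold change -0.66, SE 0.33, adjusted p = 0.156), and Mmp9 at 0.35 to 1.49 and 0.617 to 1.49 CPM (log2 fold change 0.31, SE 0.40, adjusted p = 0.598). Mmp3 and Mmp7 were untested, at no more than 0.326 and 0.373 CPM in any liver.

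Among the inhibitors, Timp3, which binds to the matrix and also blocks ADAM17 and aggrecanases, was at 42.3, 44.9, 46.3, 44.9 and 40.5 CPM in vehicle livers and at 35.2, 32.2, 23.2, 29.1 and 41.6 CPM in halofuginone livers. Halofuginone liver 5 lay within the vehicle range and the others below it. Timp3 fell 1.36-fold (log2 fold change -0.44, SE 0.13, adjusted p = 0.0371), the least stable of the 10 calls, kept in 6 of 20 alternatives. Timp1, the inducible inhibitor often used as a marker of liver fibrosis, was at 0.326 to 0.597 CPM with vehicle and at 0.447, 0.149, 0.286, 0.0386 and 0.186 CPM with halofuginone, 1 to 16 reads per library (log2 fold change -1.15, SE 0.43, adjusted p = 0.0733). Without halofuginone liver 1 its adjusted p was 0.0124. Timp2 was at 10.2 to 18.9 CPM with vehicle and 9.87 to 17.7 CPM with halofuginone (log2 fold change -0.25, SE 0.19, adjusted p = 0.364), and Timp4 had at most 2 reads in any liver.

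These bulk values cannot separate fewer cells of a type from less RNA per cell. Of all genes tested in liver 10.5% were called lower and 12.7% higher, the shares beside which the marker counts below stand. A list of 13 stellate cell and fibroblast markers, tested in full in liver, had 4 genes called lower and none higher, with a median log2 fold change of -0.39. Its summed level was 341 to 440 CPM in vehicle livers and 240 to 369 CPM in halofuginone livers. The list of 10 macrophage markers had no call in liver with edgeR and 1 gene lower at unadjusted p under 0.05 (18% of all genes were). Its summed levels were 435 to 532 CPM and 409 to 687 CPM. Other lists moved too. Of 8 lipid-associated macrophage markers 3 were called lower and 1 higher (summed level 90.4 to 134 CPM with vehicle and 93.2 to 357 CPM with halofuginone), and of 8 endothelial markers 3 lower and 1 higher (206 to 245 and 182 to 241 CPM). The sum of 357 CPM, in halofuginone liver 3, was mostly Fabp5, at 297.2 CPM there. Of 8 hepatocyte markers 2 were called lower (115310 to 132847 and 46446 to 108668 CPM), and of 6 genes of the adipocyte list tested 5 were (116 to 228 and 33.3 to 84.0 CPM). Adipoq and Plin1 on the adipocyte list were at most 0.04 CPM in any liver, so that list is not read as adipocytes there. The part of these markers in the falls of the protease genes was not tested.

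In white adipose tissue none of the 35 genes tested was called, as none of 14030 genes was (0%). Unadjusted, 10 of the 35 had p under 0.05 (28.6%, beside 13.4% of all genes), 8 lower (22.9%, beside 7.91%) and 2 higher (beside 5.5% of all genes). The groups did not overlap in 12 of the 35 (34.3%, beside 20.6%), 9 lower (beside 10.4% of all genes) and 3 higher (beside 10.2%). The median log2 fold change was -0.34, beside 0.01 over all genes. DESeq2, run as an alternative, called 5 of these genes at an adjusted p under 0.05 (Mmp11, Timp2, Mmp23, Loxl2 and Mmp19), where it called 723 of all genes. An edgeR fit over the 16 libraries of both tissues called Loxl2 and Mmp19, 2 of 39 members tested, beside 2.25% of all genes. With 10 genes at unadjusted p under 0.05, the count was 6 without halofuginone fat 2.

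The lysyl oxidase Loxl2 was at 71.4, 78.2 and 148 CPM in vehicle fat and 27.9, 41.2 and 48.6 CPM in halofuginone fat. The groups did not overlap, and vehicle fat 3 was the highest. The log2 fold change was -1.34 (SE 0.34, adjusted p = 0.210), and -0.93 without vehicle fat 3. Loxl3 was at 11.1, 9.98 and 18.9 CPM with vehicle and 4.92, 8.59 and 9.41 CPM with halofuginone, without overlap (log2 fold change -0.80, SE 0.35, adjusted p = 0.387; -0.46 without vehicle fat 3). It shares 11.6% of its exon bases with Htra2 on the opposite strand, which was at 31.0 CPM with vehicle and 26.4 CPM with halofuginone on average. Lox, with the highest mean FPKM of the family in vehicle fat, was at 213, 125 and 252 CPM with vehicle and 271, 183 and 91.5 CPM with halofuginone (log2 fold change -0.11, SE 0.43, adjusted p = 0.94). Loxl1 (log2 fold change -0.36, adjusted p = 0.678) and Loxl4 (0.07, adjusted p = 0.952) overlapped between groups.

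Timp2, the inhibitor that also takes part in pro-Mmp2 activation with Mmp14, was lower in halofuginone fat. It was at 925, 1005 and 1074 CPM with vehicle and 638, 672 and 636 CPM with halofuginone. Every halofuginone library lay well below every vehicle library, at a log2 fold change of -0.63 (SE 0.15, adjusted p = 0.197). Mmp2, its target, was at 142, 201 and 325 CPM with vehicle and 106, 138 and 138 CPM with halofuginone (log2 fold change -0.81, SE 0.31, adjusted p = 0.342). The vehicle libraries were spread widely, and the value was -0.43 without vehicle fat 3. Mmp14 was at 135, 140 and 178 CPM with vehicle and 141, 147 and 129 CPM with halofuginone (log2 fold change -0.12, SE 0.17, adjusted p = 0.799).

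The other TIMP genes overlapped between fat groups. Timp3 was at 642, 560 and 292 CPM with vehicle and 554, 441 and 585 CPM with halofuginone (log2 fold change 0.08, SE 0.31, adjusted p = 0.941). Timp4, known for its expression in fat, was at 253, 280 and 78.5 CPM with vehicle and 581, 197 and 322 CPM with halofuginone (log2 fold change 0.85, SE 0.56, adjusted p = 0.565; 0.46 without vehicle fat 3 and 0.35 without halofuginone fat 1). Timp1 was at 10.5, 5.93 and 46.0 CPM with vehicle and 7.07, 14.1 and 15.7 CPM with halofuginone; its log2 fold change of -0.76 (SE 0.75, adjusted p = 0.716) became 0.58 without vehicle fat 3.

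**Figure D2:**
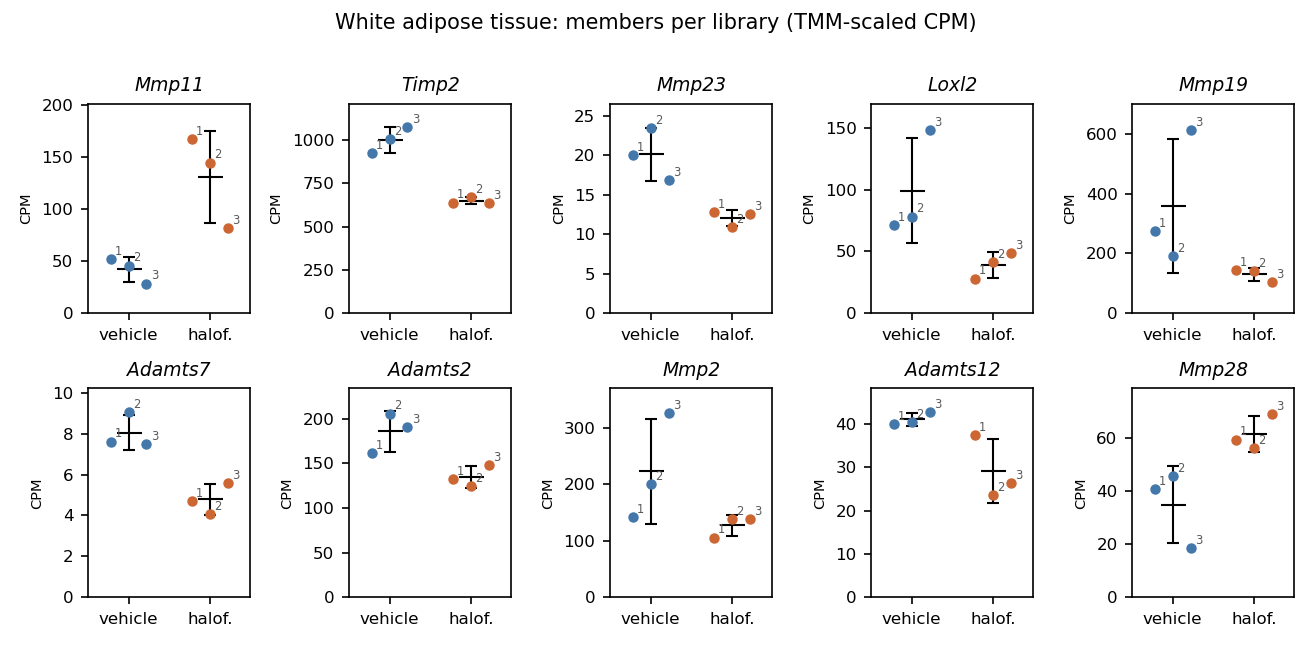
Level in CPM (vertical axis, from 0) of the 10 matrix genes with unadjusted p under 0.05 in white adipose tissue, per library; blue is vehicle, orange halofuginone (halof.), numbers are replicates, and the line and bar are the mean ± SD (n = 3). No gene shows overlap between groups, Mmp11 and Mmp28 being higher with halofuginone, and vehicle fat 3 is far above the other vehicle libraries for Mmp19 (613 CPM) and Loxl2 (148 CPM).

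Mmp11 had the smallest p of the 50 genes in fat, and its direction was upward. It was at 51.8, 45.7 and 28.5 CPM with vehicle and 167, 145 and 81.7 CPM with halofuginone. The groups did not overlap, at a log2 fold change of 1.65 (SE 0.34, adjusted p = 0.160). Chchd10, its neighbour on the opposite strand, was at 36.2 CPM with vehicle and 179.6 CPM with halofuginone on average. Its log2 fold change was 2.31 (SE 0.31, adjusted p = 0.0954). In vehicle livers Chchd10 was at 295.5 to 344.1 CPM, where Mmp11 was at no more than 0.401 CPM. Whether Chchd10 reads enter the Mmp11 counts of fat was not tested. Mmp28 was at 40.8, 45.8 and 18.5 CPM with vehicle and 59.5, 56.2 and 69.2 CPM with halofuginone, without overlap (log2 fold change 0.82, SE 0.33, adjusted p = 0.354; 0.51 without vehicle fat 3). Its overlapping gene 1700020L24Rik was at 6.85 and 12 CPM on average.

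Mmp19 was at 274, 190 and 613 CPM in vehicle fat and 143, 142 and 104 CPM in halofuginone fat. Vehicle fat 3 was by far the highest, and the remaining vehicle libraries were also above every halofuginone library. The log2 fold change was -1.47 (SE 0.43, adjusted p = 0.250), and -0.84 without vehicle fat 3. Mmp23 was at 20, 23.4 and 16.8 CPM with vehicle and 12.8, 10.9 and 12.6 CPM with halofuginone (log2 fold change -0.73, SE 0.18, adjusted p = 0.208), without overlap. Mmp15 overlapped between groups, at 14.3, 18 and 7.67 CPM and 13.3, 9.20 and 11.0 CPM (log2 fold change -0.25, SE 0.33, adjusted p = 0.794). Mmp9 (log2 fold change 0.04, SE 0.45, adjusted p = 0.979) and Mmp8 (0.70, SE 0.85, adjusted p = 0.779) were low and overlapped.

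Of the chromosome 9 genes whose promoters are printed above, Mmp13, Mmp3 and Mmp7 overlapped between the fat groups. Mmp13 was at 2.40, 0.665 and 11.4 CPM with vehicle and 0.735, 2.09 and 0.894 CPM with halofuginone (log2 fold change -1.95, SE 1.00, adjusted p = 0.452; -0.29 without vehicle fat 3). Mmp3, or stromelysin-1, was at 25, 18 and 75.1 CPM with vehicle and 19.2, 29.4 and 44.6 CPM with halofuginone (log2 fold change -0.34, SE 0.57, adjusted p = 0.839; 0.53 without vehicle fat 3). For both, the highest library was vehicle fat 3. Mmp10, named here after its values were seen, had 2, 1 and 11 reads in vehicle fat and none in halofuginone fat, again with vehicle fat 3 highest, and was under the filter. Its groups did not overlap, and without the filter its log2 fold change was -5.34 (SE 1.81, adjusted p = 0.400 with edgeR).

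Mmp7 followed other libraries. It was at 0, 47.0 and 15.1 CPM in vehicle fat and 0.226, 0 and 36.4 CPM in halofuginone fat (log2 fold change -0.76, SE 2.07, adjusted p = 0.911). Mmp7 is known as an epithelial metalloproteinase, and the epithelial gene Epcam was at 0.54, 20.5 and 8.36 CPM and at 1.36, 0.37 and 15.1 CPM in the same libraries. High Mmp7 and high Epcam were found in vehicle fat 2 and 3 and in halofuginone fat 3. The epithelial and mesothelial keratins did not share that order: in halofuginone fat 1, where Mmp7 was near 0, Krt7 was at 38.0 CPM, its highest fat value, with Krt18 at 44.6, Krt8 at 29.4 and Krt19 at 17.8 CPM. Epcam was named after its values were seen, and the part of epithelial RNA in the Mmp7 value was not tested.

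**Figure D3:**
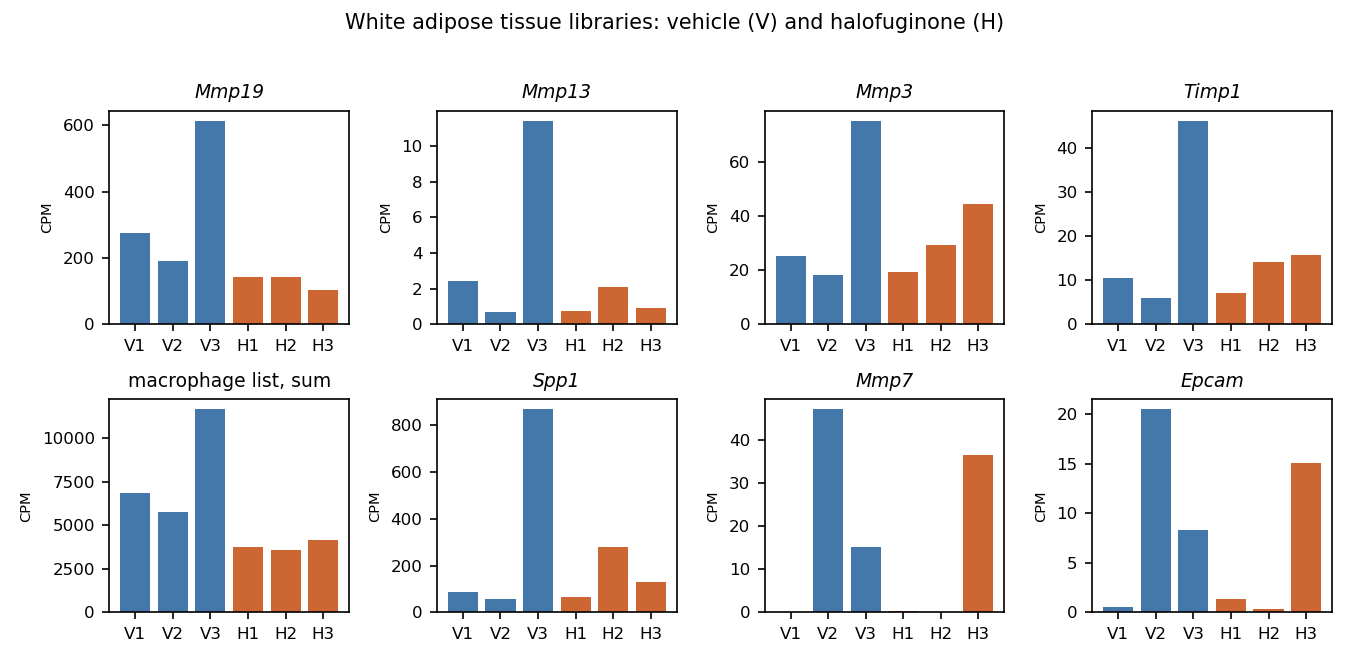
Level in CPM (vertical axis, from 0) in each white adipose tissue library, V1 to V3 vehicle (blue) and H1 to H3 halofuginone (orange), for Mmp19, Mmp13, Mmp3, Timp1 and Mmp7 and for the summed macrophage marker list, Spp1 and Epcam. V3 is highest for Mmp19, Mmp13, Mmp3, Timp1, the macrophage sum (11675 CPM) and Spp1 (869.1 CPM), while Mmp7 and Epcam are highest in V2 and H3. Spp1 is from the lipid-associated macrophage list (not plotted otherwise). On that list Trem2, Cd9, Gpnmb, Lpl and Itgax are also highest in V3, but Atp6v0d2 (1408 CPM) and Fabp5 (870.5 CPM) in H2.

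The procollagen N-proteinase Adamts2 was at 161, 206 and 191 CPM in vehicle fat and 132, 124 and 148 CPM in halofuginone fat, without overlap (log2 fold change -0.46, SE 0.16, adjusted p = 0.304). Both COMP-cutting enzymes were lower in every halofuginone library. Adamts7 was at 7.61, 9.04 and 7.50 CPM and 4.69, 4.09 and 5.57 CPM (log2 fold change -0.75, SE 0.24, adjusted p = 0.273). Adamts12 was at 39.9, 40.4 and 42.7 CPM and 37.4, 23.5 and 26.3 CPM (log2 fold change -0.50, SE 0.20, adjusted p = 0.353). The vehicle values of both genes lay close together, and without vehicle fat 3 the log2 fold changes were -0.80 and -0.47.

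Of the same 5 proteoglycanase genes in fat, none had an unadjusted p under 0.05; 4 had a higher mean with halofuginone and Adamts15 a lower one. Adamts9 was at 58.9, 44.5 and 18.6 CPM with vehicle and 90.6, 72.7 and 61.8 CPM with halofuginone, without overlap (log2 fold change 0.88, SE 0.40, adjusted p = 0.400; 0.54 without vehicle fat 3). Adamts1 was at 119, 71.5 and 65.8 CPM and 190, 120 and 83.1 CPM, with overlap (log2 fold change 0.62, SE 0.36, adjusted p = 0.511; 0.25 without halofuginone fat 1). Adamts4 was at 13.8, 14.0 and 11.4 CPM with vehicle and 51.2, 15.7 and 14.0 CPM with halofuginone, a difference that came from halofuginone fat 1 (log2 fold change 1.04, SE 0.51, adjusted p = 0.427; 0.18 without it). Adamts5, with the highest mean FPKM of them in vehicle fat, was at 402, 178 and 263 CPM and 531, 325 and 136 CPM (log2 fold change 0.23, SE 0.51, adjusted p = 0.884), and Adamts15 did not separate the groups (log2 fold change -0.10, SE 0.28, adjusted p = 0.913).

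Markers of macrophages moved with the fat groups. Of 10 listed genes, 9 were lower with unadjusted p under 0.05 and 8 did not overlap between groups, at a median log2 fold change of -1.19. Over all genes tested in fat, 7.91% were lower and 5.5% higher at unadjusted p under 0.05, and 10.4% were lower without overlap. The counts of the other lists in this paragraph stand beside the same shares. The summed macrophage level was 5784 to 11675 CPM in vehicle fat and 3593 to 4152 CPM in halofuginone fat. The 13 stellate cell and fibroblast markers summed to 2654 to 4199 CPM and 2459 to 3163 CPM, with 12 tested, 2 lower at unadjusted p under 0.05 and none higher. Mast cell markers were lower at unadjusted p under 0.05 in 5 of 5 tested (summed level 110 to 960 CPM with vehicle and 65.1 to 90.3 CPM with halofuginone), genes of the Kupffer cell list in 4 of 4 (79.6 to 156 and 13.8 to 25.4 CPM) and lipid-associated macrophage markers in 4 of 8 (7604 to 18496 and 5665 to 11811 CPM). Kupffer cells are macrophages of the liver, and Clec4f on that list was at most 0.06 CPM in any fat library. The list is therefore not read as Kupffer cells in fat. Adipocyte markers summed to 13646 to 26566 CPM and 22779 to 28043 CPM, with 2 of 10 higher at unadjusted p under 0.05. The part of these markers in the lower protease levels was not tested.

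The effect of halofuginone in fat minus that in liver was tested for 39 of the 50 genes in a fit that took all 16 libraries as independent, and 1 was called, Adamts9, beside 0.949% of all genes tested. The contrast for Adamts9 was 2.24 on the log2 scale (SE 0.43, adjusted p = 0.0291): the level fell with halofuginone in liver and was higher in every halofuginone fat library. Leaving out 1 library kept the contrast between 1.88 and 2.60, and the adjusted p rose above 0.05 without any of 6 libraries: vehicle liver 2 or 3, halofuginone liver 3 or 5, or halofuginone fat 1 or 2 (0.0531 to 0.0653). The other aggrecanases pointed the same way without being called, Adamts4 at 2.39 (SE 0.65, adjusted p = 0.0872) and Adamts1 at 1.09 (SE 0.34, adjusted p = 0.132). Mmp28 had a contrast of -2.83 (SE 0.79, adjusted p = 0.0958), and Adamts7 one of -1.02 (SE 0.46, adjusted p = 0.297). Halofuginone liver 1 stood apart from its group for both, at 0.546 CPM for Mmp28 and 4.82 CPM for Adamts7, and these 2 contrasts are not given without it. Without that library 2 of 39 members were called, 1 with a positive and 1 with a negative contrast, beside 7.07% of all genes. For Loxl2 the contrast was -0.03 (SE 0.37, adjusted p = 1), with falls of like size in the separate fits of the tissues.

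**Figure D4:**
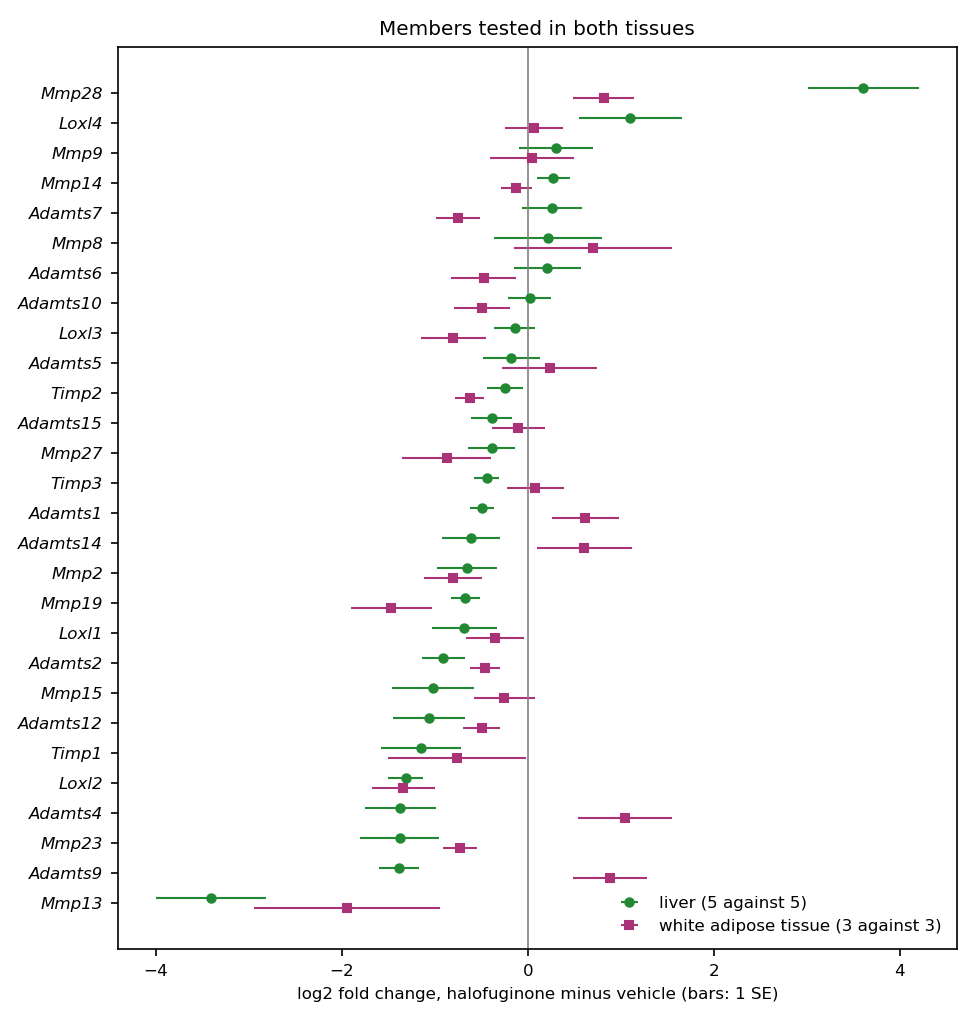
Log2 fold change (halofuginone minus vehicle, horizontal axis) with 1 SE for the 28 matrix genes tested in both tissues, ordered by the liver value; green circles are liver (5 against 5) and purple squares white adipose tissue (3 against 3). Loxl2, Mmp19, Mmp23 and Adamts2 lie below 0 in both tissues, Mmp28 above 0 in both, and Adamts9 and Adamts4 on opposite sides.

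Of the 28 genes tested in both tissues, 18 had the same sign (64.3%, beside 61.6% of all genes tested in both), 14 of them lower in both and 4 higher in both. This share is near that of all genes. The 14 include Loxl2, Mmp13, Mmp19, Mmp23, Adamts2, Adamts12, Mmp2 and Timp1.

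Genes that feed, activate or assist these enzymes were examined as lists. The counts stand beside 10.5% of all genes that fell and 12.7% that rose in liver, and beside 7.91% lower and 5.5% higher at unadjusted p under 0.05 in fat. Of the 13 fibrillar substrate genes, 10 were tested in liver, all with a negative log2 fold change, and 5 fell; the collagens Col1a1 (log2 fold change -1.77, adjusted p = 0.0063), Col3a1 (-1.71, adjusted p = 0.0137) and Col5a2 (-1.08, adjusted p = 0.0148) led. In fat, 9 of 11 were lower at unadjusted p under 0.05, Col5a1 at -1.11 (adjusted p = 0.129), Col5a2 at -1.22 (adjusted p = 0.159) and Col1a1 at -1.27 (adjusted p = 0.168). The elastic fibre list, which holds further lysyl oxidase substrates, had 5 of 13 genes called in liver, all lower, among them Fbln2 (-0.98, adjusted p = 0.0197), Ltbp4 (-0.54, adjusted p = 0.0357) and Ltbp3 (-0.88, adjusted p = 0.0363). In fat 5 of its 17 genes were lower at unadjusted p under 0.05, led by the microfibril genes Mfap5 (-1.38, adjusted p = 0.148) and Fbn1 (-1.76, adjusted p = 0.159).

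The plasmin system activates several pro-MMPs, and 2 of its 12 genes tested in liver fell (10.5% of all genes did): Plau, the urokinase gene (-0.89, adjusted p = 0.0129), and its receptor Plaur (-1.31, adjusted p = 0.0478). In fat 2 of 8 were lower at unadjusted p under 0.05 (7.91% of all genes were), among them Plat (-0.79, adjusted p = 0.284). Of the membrane ADAM and astacin proteases, 4 of 12 fell in liver, including Mme (-2.03, adjusted p = 0.0083), Adam8 (-1.81, adjusted p = 0.0087) and the procollagen C-proteinase Bmp1 (-0.63, adjusted p = 0.0234). In fat 5 of 12 were lower at unadjusted p under 0.05, led by Adam12 (-1.66, adjusted p = 0.165). Among cathepsins and cystatins, Ctsl rose in liver (2.39, adjusted p = 0.0061) while 3 of the 14 tested fell, Cst3, Ctsk and Cstb; in fat none of 16 had an unadjusted p under 0.05 with edgeR.

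Of the further inhibitors and ADAMTS-like genes, 2 of 10 fell in liver (10.5% of all genes did), Bsg (-0.44, adjusted p = 0.0148), which induces MMPs in neighbouring cells, and Pcolce (-0.74, adjusted p = 0.0218), the enhancer of Bmp1. In fat 3 of 14 were lower at unadjusted p under 0.05, led by Papln (-1.56, adjusted p = 0.162) and Pcolce (-1.09, adjusted p = 0.218). The list of MMP inducers, made of cytokines and of AP-1 and related factors, had 1 call of 14 in liver, Jun (-0.73, adjusted p = 0.0249), beside 23.2% of all genes called. In fat 2 of its 20 genes were higher at unadjusted p under 0.05 and 2 lower, among them Il1a (2.18, adjusted p = 0.262) and Fosb (-1.81, adjusted p = 0.156). Of 6 genes for collagen uptake and breakdown, Prcp rose (0.31, adjusted p = 0.039) and Mfge8 fell (-0.60, adjusted p = 0.0267) in liver, and 4 were lower in fat at unadjusted p under 0.05, led by Pepd (-0.65, adjusted p = 0.210).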

How the data were processed

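Poly(A) RNA libraries of liver (5 vehicle, 5 halofuginone) and white adipose tissue (3 and 3) were analysed. The submitters' processing notes list fastp 0.18.0, Bowtie2 2.2.8, HISAT2, StringTie 1.3.1, RSEM and the build mm39, without roles. The authors deposited a count and an FPKM value per gene and library; the counts are whole numbers, and how they were made, and with which strand setting, is not given in the sources used here. Per library, between 1 and 31 genes without reads still carried a positive FPKM.

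Counts were tested per tissue with edgeR 4.0.16 (R 4.3.3; filterByExpr, TMM, quasi-likelihood F test, Benjamini-Hochberg over all genes), and the tissue contrast in 1 fit of 16 libraries. Standard errors come from the F statistic (absolute log2 fold change over root F). The scripts were tested on simulated counts. Alternatives used DESeq2 1.42.0, limma 3.58.1 on log2(FPKM + 1) or log2(FPKM + 0.1), other scalings and filters (none, or 1 CPM), a replicate block and leaving out each library. No 2 libraries of a group agreed within sampling noise. Members and lists were chosen with earlier results of these data known. Full values are given for members called in a tissue or in the contrast, for those of fat with unadjusted p under 0.05 and no overlap, and for a list of 28 well-known members; for other lists at most 3 genes per tissue are named. Promoters are RefSeq's, on GRCm38.p6.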

Additional observations from a re-analysis of the deposited data

Results flagged for a closer look

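Each member tested in liver, and Mmp11, which was added by name, was examined in each liver group of 5 libraries. This gave 60 sets of values. In 6 of the 60 the gap from the highest or lowest value to the next was above 0.71 of the range. In all 6 it was the highest value. About 3 of 60 independent sets would be flagged by chance at either end, but these sets share the same livers, so the counts cannot be compared closely. Adamts1 was at 18 CPM in vehicle liver 3, and the next was 13.1. Mmp27 was at 2.22 CPM in vehicle liver 1, and the next was 1.35. In halofuginone liver 2, Mmp8 was at 1.94 CPM with 0.497 next, and Loxl4 at 6.18 CPM with 1.19 next. In halofuginone liver 1, Mmp15 was at 36.9 CPM with 12.3 next, and Adamts7 at 4.82 CPM with 2.24 next. For Adamts9 the effect of halofuginone differed between tissues, by 2.24 on the log2 scale (fat minus liver; adjusted p = 0.0291 in the edgeR fit of 16 libraries). No cause was tested for any of these values.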

How the results depend on the processing

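Of the calls in liver, Loxl2, Adamts9, Mmp13 and Mmp28 held under every alternative that gave a value. The liver count of 10 of 29 was 6 of 19 with a filter of 1 CPM, where 24.3% of all genes were called. It was 6 of 29 with limma on log2(FPKM + 1) and 6 of 29 on log2(FPKM + 0.1), beside 22.7% and 23% of all genes. On log2(FPKM + 1) without a filter it was 4 of 43, beside 14.2%. On these 3 FPKM settings the share of members called was not above that of all genes. With 1 library left out the count ran from 5 to 14, and the share of all genes called from 10.3% to 42.8%. The median log2 fold change of members in liver, -0.44, was -0.060, -0.20 and -0.020 on those 3 FPKM settings. The median of all genes was 0.10, 0.15 and 0.03 there. In vehicle liver 7 of the 50 genes had a mean of at least 1 FPKM, so the added constant is not small beside many of these levels. The FPKM medians are therefore not on the scale of the edgeR value. The cause of the difference was not tested. In fat, DESeq2 called 5 members, beside 5.15% of all genes, and the fit of 16 libraries 2, beside 2.25%. There edgeR called 0 (0 to 0 with 1 library left out). The 10 fat members at unadjusted p under 0.05 ran from 6 to 10. The contrast's 1 call became 3 with DESeq2, beside 4.63% of all genes, and 0 with the replicate block, beside 0.155%. With 1 library left out it ran from 0 to 2, and the share of all genes called from 0.23% to 7.07%.

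Replicate numbers did not pair libraries (correlations of same-numbered libraries -0.19 to 0.12 in liver and -0.60 to 0.18 in fat). With the replicate block, 8 members were called in liver and 0 in fat, the liver calls over all genes went from 2850 to 1901, Mmp8 in liver was -0.14 instead of 0.22, and the Adamts9 contrast had an adjusted p of 0.0681. Loxl3 in liver, at -0.14, was 0.015 with library-size scaling, which moved the median of all genes to 0.17, and 0.010, 0.048 and 0.010 on the FPKM settings above; the cause was not tested.

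With 1 library left out, these log2 fold changes changed sign, from lowest to highest: Mmp8 in liver -0.78 to 0.43; in fat Adamts15 -0.34 to 0.10, Adamts5 -0.28 to 0.62, Lox -0.52 to 0.23, Loxl4 -0.13 to 0.33, Mmp14 -0.20 to 0.013, Mmp15 -0.53 to 0.025, Mmp3 -0.69 to 0.53, Mmp7 -7.51 to 0.70, Mmp8 -0.58 to 1.20, Mmp9 -0.20 to 0.55, Timp1 -1.20 to 0.58 and Timp3 -0.19 to 0.31. None of these was called. Depth limits the members under the filter, 1 of which (Mmp11 in liver) had an adjusted p of 0.0183 when the filter was dropped.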
